A study of Mus musculus with 12 samples.

Results

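Nrgn, Atp8a2, Trf, Rln3, Cntnap1, Gm6213 and Speer7-ps1 are 7 of the 23284 genes listed for natural killer T (NKT) cells of thymus and liver, and none of them is a textbook gene of these cells. They were picked from these same libraries because their RNA differed strongly between NKT cells of cKO and YFP+ mice in thymus or liver. Their differences between these groups are therefore given below as descriptions without a test, and tests are kept for the relatives and neighbours of the 7 genes. NKT cells are T cells whose receptor recognises lipids held by CD1d. RNA came from live cells sorted for CD1d dimer and T cell receptor beta and against CD4, CD8 and CD45R, from mice of the strain C57BL/6 whose age is not given. There were 4 groups of 3 libraries: thymus cKO, thymus YFP+, liver cKO and liver YFP+.

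In cKO mice the E8III-Cre transgene removes a floxed Rag2 gene at the CD4+ CD8+ double-positive stage, and their NKT cells stand for cells of double-negative origin. In YFP+ mice the same E8III-Cre opens a Rosa26-loxP-STOP-loxP reporter, and their NKT cells stand for cells that passed through the double-positive stage. All 4 groups thus carry the Cre, and only cKO mice lose Rag2, so an effect of cell origin and an effect of the mouse cannot be told apart. Each liver library is titled for one mouse and described for the other. The groups here follow the titles, which the deposited column names share, and every liver direction below turns round if the descriptions hold. Rag2 itself, the deleted gene, had a value of 0 in every liver library with a cKO title, while the YFP+ titles had 1.365, 0.985 and 1.075 FPKM. Rag1 and Dntt, double-positive genes that are not deleted, were also lower under the liver cKO titles. Rag1 was at 0.146 to 0.223 FPKM under cKO and 1.328 to 1.957 FPKM under YFP+ titles. Dntt was at 0.385 to 0.768 FPKM and 15.678 to 16.431 FPKM. Rag2 therefore cannot settle the liver labels. In the thymus Rag2 was listed at 0 in 5 of 6 libraries and cannot check the labels there either. The labels do not say whether the libraries of a group came from separate animals, so the spread between them, which all p-values rest on, may be technical. The unit throughout is FPKM, a fragment number divided by the length of the transcript and by how many fragments of the library were mapped. FPKM of a library summed to 187828 to 194655 in thymus cKO, 198790 to 212688 in thymus YFP+, 450429 to 465304 in liver cKO and 509267 to 558042 in liver YFP+. The read depth is unknown, and thymus and liver were normalized as separate tables, and no level is set against one of the other tissue.

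The 7 genes are known from other organs. Nrgn encodes neurogranin, a protein of neuronal dendrites that holds calmodulin while calcium is low and releases it when calcium rises or when protein kinase C phosphorylates it. Atp8a2 encodes a flippase that carries phosphatidylserine and phosphatidylethanolamine to the cytosolic side of a membrane. Trf encodes transferrin, the iron carrier of blood plasma, made mainly by hepatocytes and in the brain by oligodendrocytes. Rln3 encodes relaxin-3, a neuropeptide of the insulin and relaxin superfamily. Cntnap1 encodes Caspr, an adhesion protein of the junctions beside the nodes of myelinated axons. Gm6213 is annotated by RefSeq as a long noncoding RNA. Speer7-ps1 is a transcribed pseudogene of the Speer family, whose protein-coding genes are known from spermatogenesis.

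In cKO libraries Nrgn, Atp8a2 and Trf were lower, most of all in the thymus. Rln3, Cntnap1 and Gm6213 were higher, most of all in the liver, and Speer7-ps1 was higher in both tissues. For all 7 genes the cKO mean lay on the same side of the YFP+ mean in thymus and in liver, with 3 genes lower and 4 higher. In 5 of the 7 (Nrgn, Trf, Rln3, Cntnap1 and Speer7-ps1) the groups did not overlap in either tissue. The groups overlapped for Gm6213 in the thymus and for Atp8a2 in the liver. Among all tested genes the groups were apart for 42.9% in the thymus and 44.3% in the liver. The share of all genes apart in both tissues, or on the same side in both, was not computed. Since the 7 genes were chosen for their differences, nothing is read from these counts. Fewer cells of a type and less RNA per cell cannot be told apart in such libraries.

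**Figure D1:**
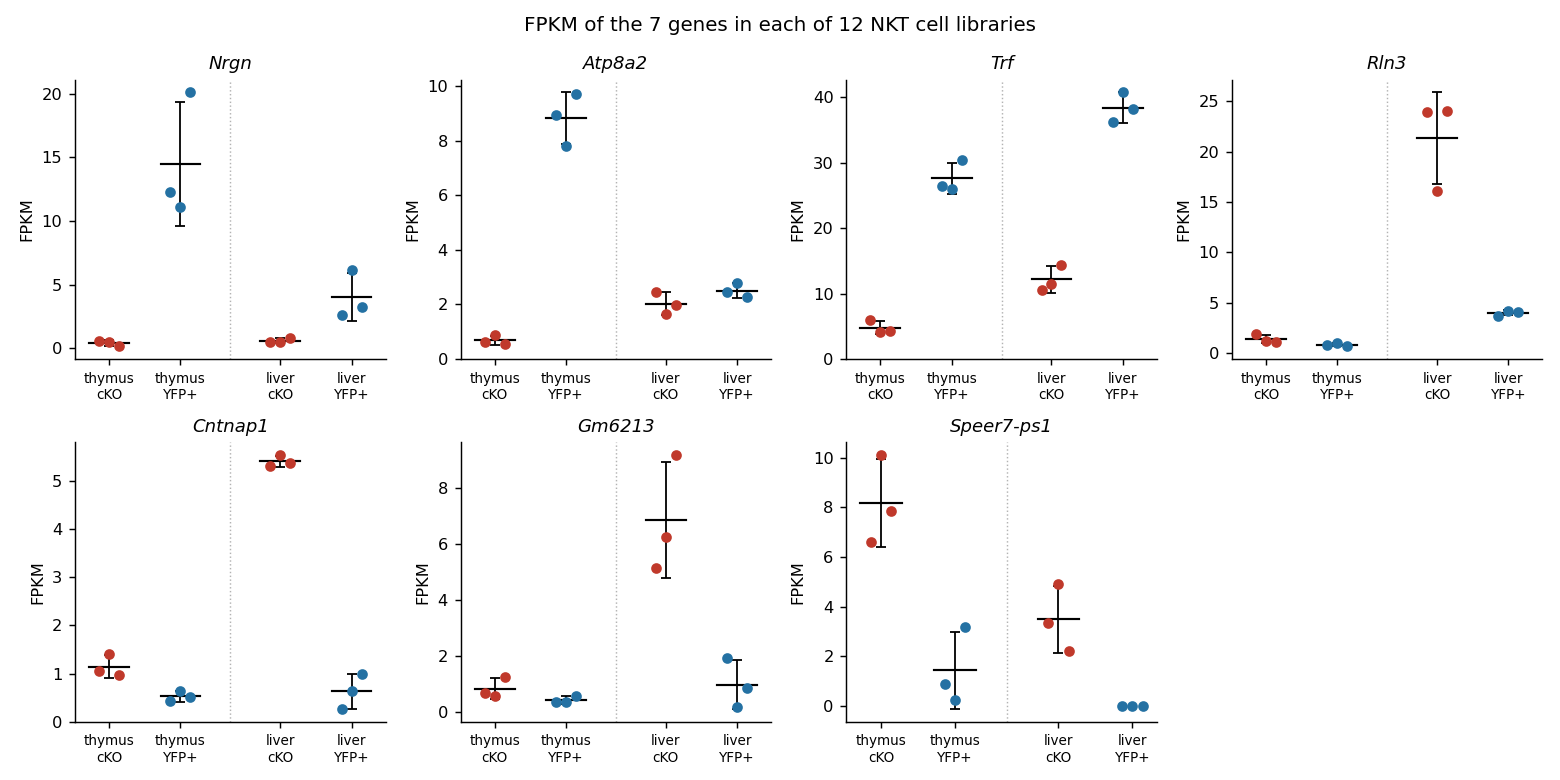
FPKM of each of the 7 genes (vertical axes, linear, a scale of its own for each gene) in cKO (red) and YFP+ (blue) libraries of thymus and liver. Points are libraries, black lines the mean and SD of 3, omitted where all 3 are listed at 0; the dotted line parts the separately normalized tissues, and Nrgn, Atp8a2 and Trf are low in thymus cKO while Rln3, Cntnap1 and Gm6213 are high in liver cKO.

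The fit across all genes, limma on log2(FPKM + 1) with a mean of at least 1 FPKM required over the 6 libraries of a tissue, gives the background for these differences. In the thymus it called 15.7% of 9097 genes at a Benjamini-Hochberg threshold of 0.05. Of the tested genes 2.64% (240) had higher and 13.1% (1189) lower calls in cKO. Of the 7 genes 5 reached the level for testing, and 4 were among the called, Speer7-ps1 higher and Nrgn, Atp8a2 and Trf lower. The groups did not overlap for 6 of the 7, against 42.9% of the tested genes. Unlike that share, the count takes in Cntnap1 and Gm6213, which were too low to be tested in the thymus. In the liver the fit called 27.2% of 9591 genes, with 7.49% (718) higher and 19.7% (1889) lower in cKO. All 7 genes reached the level for testing there, and 6, all but Atp8a2, were among the called, 4 higher and 2 lower. The groups did not overlap for 6 of the 7 in the liver, against 44.3% of the tested genes. Because the genes were chosen for these differences, nothing can be read from these counts. With libraries rescaled by median ratios the thymus calls split into 453 higher and 359 lower, and the liver calls into 1040 and 1036. Single libraries moved these totals. Leaving out cKO replicate 1, 2 or 3 gave 2408, 645 or 558 calls in place of 1429 in the thymus, and leaving out YFP+ replicate 1, 2 or 3 gave 596, 634 or 472. Leaving out cKO replicate 1 or 2 gave 1623 or 1644 calls in place of 2607 in the liver, and leaving out YFP+ replicate 2 gave 1539. On the log2 scale the median tested gene lay at -0.16 (thymus) and -0.11 (liver), and differences below are given as deposited, not relative to it.

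**Figure D2:**
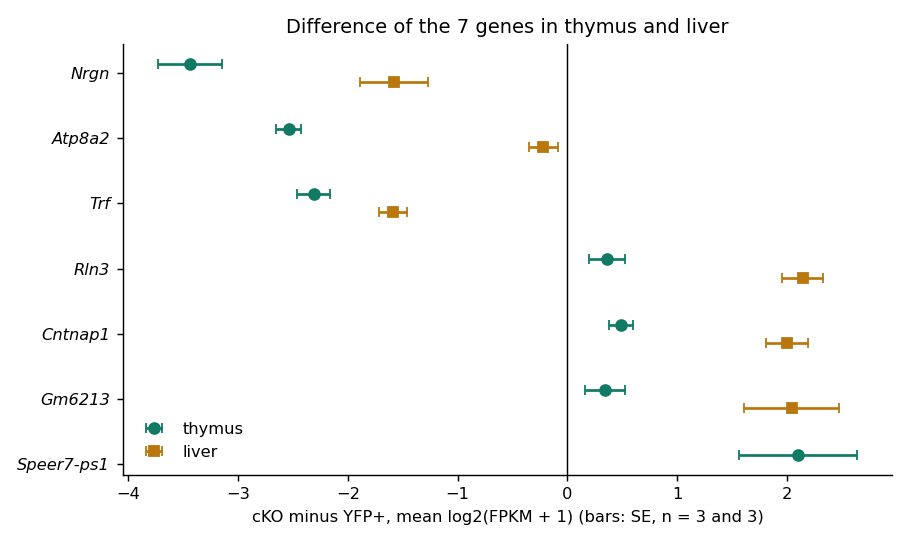
Difference between cKO and YFP+ (horizontal axis, mean log2(FPKM + 1), with the SE from 3 and 3 libraries) for the 7 genes in thymus (circles) and liver (squares). The thymus differences of Nrgn, Atp8a2 and Trf lie farthest left, and the liver differences of Rln3, Cntnap1 and Gm6213 lie near 2; Speer7-ps1 has no liver point, since all 3 liver YFP+ libraries list it at 0.

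Nrgn was far lower in cKO in the thymus. In the thymus it was at 0.594, 0.449 and 0.144 FPKM in cKO libraries and at 12.258, 11.095 and 20.086 FPKM in YFP+ libraries. Every cKO library lay far under every YFP+ library, with the lowest YFP+ value 18.7 times the highest cKO value. The means were 0.396 ± 0.230 in cKO and 14.5 ± 4.89 in YFP+ (FPKM, SD, n = 3 each), a log2 difference of -3.44 ± 0.29 (SE), ranking 5 by size among the 9097 tested genes. In the YFP+ thymus 90.0% of all listed genes had a lower mean than Nrgn, and in the cKO thymus 54.8%. In the liver Nrgn was at 0.517, 0.467 and 0.823 FPKM in cKO and at 2.616, 6.161 and 3.208 FPKM in YFP+. The groups were again apart, with the lowest YFP+ value 3.18 times the highest cKO value. YFP+ replicate 2 stood above the other YFP+ libraries of the liver, and the log2 difference was -1.58 ± 0.31 with it and -1.29 without it.

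Calmodulin and its kinases and phosphatases are the partners of neurogranin. Of 16 tested partner genes in the thymus 1 rose and 2 fell, beside 15.7% of all tested genes called there, and the median log2 difference of the 16 was -0.07, beside -0.16 for all tested genes. Camk4, a calmodulin-dependent kinase of T cells and neurons, fell in the thymus. It was at 0.461, 0.617 and 0.828 FPKM in cKO and at 2.393, 1.832 and 2.627 FPKM in YFP+ (log2 difference -1.0 ± 0.14, limma adjusted p = 0.00329). Prkcb, the beta form of protein kinase C, also fell there, to 7.75 ± 0.504 in cKO against 11.1 ± 0.757 FPKM in YFP+ (limma adjusted p = 0.0134). It no longer passed without cKO replicate 3 (0.0559), YFP+ replicate 2 (0.0511) or YFP+ replicate 3 (0.0561). Camkk1, a kinase that activates other calmodulin-dependent kinases, rose narrowly, to 1.34 ± 0.101 in cKO against 0.745 ± 0.226 FPKM in YFP+ (limma adjusted p = 0.0499). That call was lost without cKO replicate 2 (0.101), YFP+ replicate 1 (0.121) or YFP+ replicate 3 (0.145), and with a pseudocount of 0.1 (0.0584), no filter (0.123) or a replicate block (0.0923). Camk4, with a cKO mean of 0.635 FPKM, reached the level for testing only through YFP+, and Camkk1 only through cKO. The thymus count of partner genes leans to such genes, and nothing is read from it. The calmodulin gene Calm2 was at 81.7 ± 2.01 in cKO and 85.6 ± 3.63 FPKM in YFP+ thymus and did not pass (limma adjusted p = 0.484). Pcp4 and Gap43, which encode the proteins most like neurogranin in their calmodulin-binding segment, were nearly absent, with Pcp4 listed at 0 in all libraries and Gap43 reaching 0.219 FPKM in a single thymus library.

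In the liver 1 of 12 tested partner genes rose and 3 fell, beside 27.2% of all tested genes called there, with a median log2 difference of -0.13 beside -0.11 for all tested genes. Calm2 fell to 281 ± 10.1 in cKO against 393 ± 65.8 FPKM in YFP+ (limma adjusted p = 0.0183), and Calm3, another calmodulin gene, to 40.6 ± 1.30 against 53.95 ± 5.89 (limma adjusted p = 0.0187). Camk4 fell to 2.02 ± 0.348 against 3.05 ± 0.0466 FPKM (limma adjusted p = 0.0439). Camk2b, a calmodulin-dependent kinase best known from brain, rose to 2.65 ± 0.230 against 1.72 ± 0.151 FPKM (limma adjusted p = 0.0398). Each of the 4 liver calls was lost under some alternatives. Median-ratio scaling ended those of Calm2, Calm3 and Camk4, and each was lost without at least 3 of the 6 single libraries, as listed with the processing alternatives.

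Atp8a2 was low in the cKO thymus and nearly level in the liver. Thymus Atp8a2 was at 0.613, 0.869 and 0.566 FPKM in cKO and at 8.918, 7.809 and 9.706 FPKM in YFP+. No library of one group came near the other, and both groups were tight. The means were 0.683 ± 0.163 in cKO and 8.81 ± 0.953 FPKM in YFP+ (SD, n = 3 each), a log2 difference of -2.54 ± 0.11 (SE). In the liver Atp8a2 was at 2.459, 1.634 and 1.993 FPKM in cKO and at 2.467, 2.785 and 2.267 FPKM in YFP+. There the highest cKO library exceeded the lowest YFP+ library. The liver log2 difference of -0.22 ± 0.13 became -0.12 without cKO replicate 2 and -0.13 with median-ratio scaling.

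Of 11 other flippases and flippase subunits tested in the thymus none rose and 2 fell, beside 15.7% of all tested genes called, with a median of -0.04 beside -0.16 for all tested genes. Atp9a, a flippase family member of endosomes and the trans-Golgi network, fell in the thymus. It was at 0.584, 0.321 and 0.440 FPKM in cKO and at 2.562, 2.449 and 3.441 FPKM in YFP+ (log2 difference -1.39 ± 0.13, limma adjusted p = 5.86e-04). Atp8a1, the closest relative of Atp8a2, fell to 2.41 ± 0.416 in cKO against 4.39 ± 0.324 FPKM in YFP+ thymus (log2 difference -0.67 ± 0.12, limma adjusted p = 0.00974). Both calls held in every alternative fit run. Atp9a had a cKO mean of 0.448 FPKM and reached the level for testing only through YFP+. The thymus count of this list therefore leans to falls, and nothing is read from it. Tmem30a, the subunit that flippases need to leave the endoplasmic reticulum, was at 45.5 ± 0.993 in cKO and 46.9 ± 3.14 FPKM in YFP+ thymus (limma adjusted p = 0.694), and Atp11b, a flippase of endosomes, at 38.8 ± 4.58 and 37.6 ± 2.29 FPKM (limma adjusted p = 0.765). In the liver 1 of 7 tested genes of this list rose and none fell, beside 27.2% of all tested genes called, with a median of 0.12 beside -0.11 for all tested genes. Atp8b2, a flippase of the plasma membrane, rose to 8.36 ± 0.625 in cKO against 4.01 ± 0.282 FPKM in YFP+ liver (log2 difference 0.90 ± 0.11, limma adjusted p = 0.00129). Atp8b4, at 20.9 ± 0.859 in cKO and 19.3 ± 1.51 FPKM in YFP+ liver, and Tmem30a, at 18.7 ± 1.87 in cKO and 20.05 ± 3.15 FPKM in YFP+ liver, did not pass (limma adjusted p = 0.393 and 0.642).

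Trf was lower in cKO in both tissues, and it was the most abundant of the 7 genes in YFP+ libraries of either tissue. Thymus Trf was at 5.915, 4.160 and 4.328 FPKM in cKO and at 26.488, 26.024 and 30.347 FPKM in YFP+. The groups were well apart, and the YFP+ libraries varied little. The means were 4.80 ± 0.968 in cKO and 27.6 ± 2.37 FPKM in YFP+ (SD, n = 3 each), a log2 difference of -2.31 ± 0.15 (SE). In the liver Trf was at 10.555, 11.519 and 14.398 FPKM in cKO and at 36.174, 40.819 and 38.273 FPKM in YFP+. All cKO libraries of the liver lay under all YFP+ libraries, and the log2 difference was -1.59 ± 0.13. Srprb, a signal recognition particle receptor gene beside Trf in RefSeq's order, was at 11.8 ± 1.02 in cKO and 11.01 ± 0.844 FPKM in YFP+ thymus (limma adjusted p = 0.511) and at 24.3 ± 2.72 in cKO and 22.2 ± 1.66 FPKM in YFP+ liver (limma adjusted p = 0.438). The genes beside Nrgn, Vsig2 and Spa17, and Shisa2 beside Atp8a2 were too low to test, and Nupl1, on the far side of Atp8a2, did not pass in either tissue (limma adjusted p = 0.0845 in the thymus and 0.827 in the liver).

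Transferrin RNA is above all a product of hepatocytes, and most of the 10 other hepatocyte genes listed as markers were low in these libraries. In the thymus all 10 markers of hepatocytes stayed under 1 FPKM in every library, and their sum was 0.477 to 0.647 FPKM in cKO and 0.143 to 0.446 FPKM in YFP+. In the liver Ttr, Ahsg, Fgb and Apoc3 were listed at 0 in all 6 libraries, and Alb, the albumin gene, at no more than 0.059 FPKM. The summed level of the 10 markers in the liver, 5.25 to 7.05 FPKM in cKO and 6.36 to 9.73 FPKM in YFP+, came mainly from Hp and Serpina1a, and neither passed the test. Hp was at 3.123 to 4.795 FPKM in cKO and 4.889 to 8.291 FPKM in YFP+ liver, lower in cKO as Trf was, while the groups of Serpina1a overlapped. Apoa1 reached 1.204 FPKM in liver cKO replicate 2. The part of hepatocyte RNA in the Trf difference was not tested. Trf is also a gene of oligodendrocytes. All 10 markers of neurons and oligodendrocytes were under 1 FPKM in every thymus library, and 9 of 10 in the liver. The exception was Tubb3, a neuronal tubulin gene, with 0.133 to 0.410 FPKM in cKO and 1.912 to 2.099 FPKM in YFP+ liver.

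Among genes that handle iron, none of 13 tested rose and 1 fell in the thymus, beside 15.7% of all tested genes called (median -0.08 beside -0.16). None of 13 rose and 2 fell in the liver, beside 27.2% called (median 0.00 beside -0.11). Fth1, the heavy chain of the iron store ferritin, fell in both tissues. In the liver it was at 1047 ± 26.8 in cKO and 1547 ± 99.4 FPKM in YFP+ (log2 difference -0.56 ± 0.07, limma adjusted p = 0.00139). Thymus Fth1 was at 382.5 ± 16.8 in cKO and 470 ± 38.8 FPKM in YFP+ (limma adjusted p = 0.0418). Median-ratio scaling (adjusted p = 0.456) and no filter (0.134) ended the thymus call, as did leaving out any library (0.0793 to 0.111) other than cKO replicate 1. Ftl1, the light chain, fell in the liver to 898 ± 25.4 against 1129 ± 47.3 FPKM (limma adjusted p = 0.00871), a call that median-ratio scaling (0.127) and leaving out cKO replicate 1 (0.0561) ended. Thymus Ftl1 did not pass, at 320.3 ± 10.8 in cKO and 328 ± 8.22 FPKM in YFP+ (limma adjusted p = 0.691). Tfrc, the transferrin receptor through which cells take up the protein, is named for its role, after its values were seen. It was at 0.738 ± 0.307 in cKO and 1.48 ± 0.332 FPKM in YFP+ liver, where the groups did not overlap (limma adjusted p = 0.0573), and at 0.996 ± 0.357 in cKO and 1.25 ± 0.257 FPKM in YFP+ thymus (limma adjusted p = 0.415).

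Rln3 was high in liver cKO libraries. There it was at 23.915, 16.060 and 23.979 FPKM in cKO and at 3.697, 4.206 and 4.110 FPKM in YFP+. Each cKO library was above each YFP+ library, with the lowest cKO value 3.82 times the highest YFP+ value. The means were 21.3 ± 4.55 in cKO and 4.004 ± 0.271 FPKM in YFP+ (SD, n = 3 each), a log2 difference of 2.14 ± 0.19 (SE), and 90.5% of all listed genes had a lower mean than Rln3 in the cKO liver. In the thymus Rln3 was at 1.854, 1.163 and 1.097 FPKM in cKO and at 0.824, 0.992 and 0.672 FPKM in YFP+. The groups did not overlap there, but lay close together, and the log2 difference of 0.36 ± 0.16 became 0.22 without cKO replicate 1.

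Relaxin relatives of Rln3 were mostly too low to test. Of 8 listed 2, Insl6 and Insl3, reached the level for testing in each tissue, where 1 fell and none rose. Of all tested genes 15.7% were called in the thymus and 27.2% in the liver. The medians of these 2 genes were -0.34 in the thymus, beside -0.16 for all tested genes, and -0.30 in the liver, beside -0.11. Insl6, a relaxin-like peptide gene known from testis, fell in the liver. It was at 2.467, 4.043 and 3.703 FPKM in cKO and at 9.532, 7.424 and 6.175 FPKM in YFP+ (log2 difference -0.98 ± 0.19, limma adjusted p = 0.00745). Insl3, the Leydig cell hormone of the family, was at 8.31 ± 2.61 in cKO and 5.96 ± 0.264 FPKM in YFP+ liver with overlapping groups (limma adjusted p = 0.208). In the thymus Insl3 fell to 8.14 ± 1.45 in cKO against 11.45 ± 0.758 FPKM in YFP+ (limma adjusted p = 0.0438), a call that ended with median-ratio scaling (0.172), with no filter (0.107), and on leaving out any library (0.0792 to 0.138) other than cKO replicate 1. The receptors Rxfp1, Rxfp2, Rxfp3 and Rxfp4 did not exceed 0.134 FPKM in either tissue.

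In RefSeq's gene order Rln3 lies between Il27ra, which encodes a chain of the interleukin-27 receptor, and Rfx1, a transcription factor gene. Il27ra was far more abundant than Rln3. In the liver it was at 105 ± 3.43 in cKO and 91.4 ± 4.18 FPKM in YFP+ (log2 difference 0.19 ± 0.07, limma adjusted p = 0.0829). Every liver cKO library lay above every liver YFP+ library for Il27ra. Thymus Il27ra was at 54.0 ± 9.57 in cKO and 65.2 ± 1.198 FPKM in YFP+ (limma adjusted p = 0.124). Rfx1 did not pass in either tissue (limma adjusted p = 0.977 in the liver and 0.217 in the thymus). Neither neighbour passed in the liver, where Rln3 was several times higher in cKO.

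Cntnap1 was high and very even in liver cKO libraries. There it was at 5.314, 5.541 and 5.385 FPKM in cKO and at 0.269, 0.631 and 0.987 FPKM in YFP+. The lowest cKO library was 5.38 times the highest YFP+ library. The means were 5.41 ± 0.116 in cKO and 0.629 ± 0.359 FPKM in YFP+ (SD, n = 3 each), a log2 difference of 2.0 ± 0.19 (SE). In the thymus Cntnap1 was at 1.049, 1.409 and 0.964 FPKM in cKO and at 0.429, 0.641 and 0.506 FPKM in YFP+. The thymus groups did not overlap either, at a level too low for the fit (mean 0.833 FPKM), with a log2 difference of 0.49 ± 0.11.

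Cntnap1 overlaps Ccr10, the gene of a chemokine receptor for skin and mucosal homing, in RefSeq's gene annotation, and Ccr10 rose in cKO in both tissues. In the liver Ccr10 was at 25.635, 27.148 and 20.439 FPKM in cKO and at 3.243, 5.486 and 6.246 FPKM in YFP+ (log2 difference 2.11 ± 0.20, limma adjusted p = 3.75e-04). Thymus Ccr10 was at 9.894, 11.394 and 8.199 FPKM in cKO and at 5.302, 4.801 and 5.890 FPKM in YFP+ (log2 difference 0.77 ± 0.12, limma adjusted p = 0.00751). Both Ccr10 calls held in every alternative fit run. The strand setting of the counting is not known here, and reads from any stretch that these 2 genes share cannot be assigned to 1 of them. How much of their transcripts overlaps was not measured. Ezh1, a histone methyltransferase gene and the neighbour on the far side, rose in the liver to 26.6 ± 0.982 in cKO against 17.7 ± 3.775 FPKM in YFP+ (log2 difference 0.59 ± 0.15, limma adjusted p = 0.0221). Its call was lost without cKO replicate 1 (0.0586), cKO replicate 2 (0.0678) or cKO replicate 3 (0.0705), and with no filter (0.0658). In the thymus Ezh1 did not pass (adjusted p = 0.365).

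**Figure D3:**
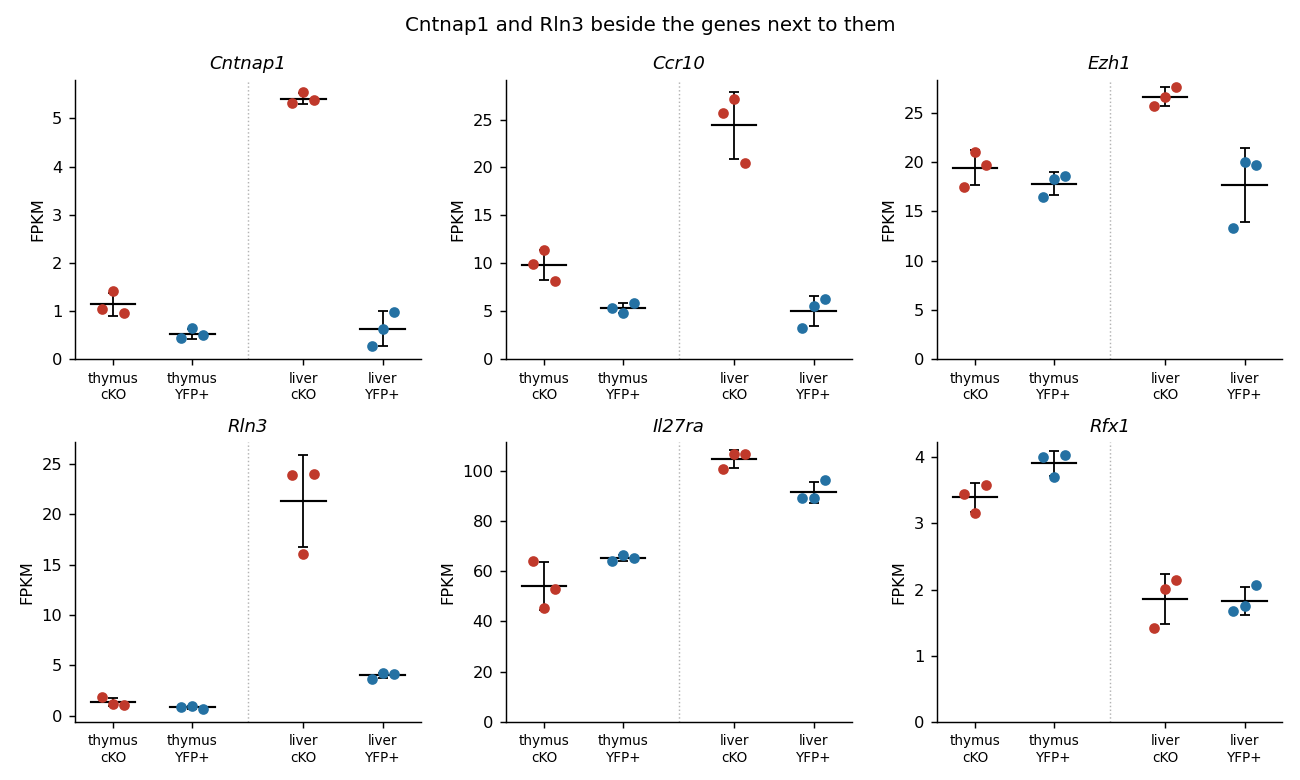
FPKM (vertical axes, linear, a scale of its own for each gene) of Cntnap1 with Ccr10 and Ezh1, and of Rln3 with Il27ra and Rfx1, in cKO (red) and YFP+ (blue) libraries of thymus and liver, with the mean and SD of 3 libraries in black. Ccr10 stands higher in cKO in both tissues as Cntnap1 does, whereas Il27ra and Rfx1 differ little where Rln3 is at 21.3 FPKM in liver cKO and 4.004 FPKM in liver YFP+.

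Relatives and axonal partners of Cntnap1 were close to silent. All 17 stayed under 1 FPKM in every thymus library, and 16 of 17 in the liver. The exception was Cntn2, which encodes contactin-2, an adhesion protein of the zone next to that of Caspr on axons. In the liver Cntn2 rose, with 24.934, 23.935 and 25.483 FPKM in cKO and 13.402, 13.010 and 16.107 FPKM in YFP+ (log2 difference 0.77 ± 0.10, limma adjusted p = 0.00176). Thymus Cntn2 did not exceed 0.041 FPKM.

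Gm6213 was higher in liver cKO and varied widely within each group. In the liver it was at 5.145, 6.250 and 9.168 FPKM in cKO and at 1.921, 0.192 and 0.857 FPKM in YFP+. The groups did not overlap, although the YFP+ libraries spread over their own mean by 88.1% of it. The means were 6.85 ± 2.08 in cKO and 0.990 ± 0.872 FPKM in YFP+ (SD, n = 3 each), a log2 difference of 2.04 ± 0.43 (SE). In the thymus Gm6213 was at 0.685, 0.568 and 1.266 FPKM in cKO and at 0.355, 0.379 and 0.595 FPKM in YFP+, too low for the fit. The lowest cKO library lay under the highest YFP+ library, and the log2 difference of 0.34 ± 0.18 became 0.18 without cKO replicate 3. Its flanking genes in RefSeq's order are Tusc3, an endoplasmic reticulum protein gene linked to protein glycosylation, and Msr1, a scavenger receptor gene of macrophages. Tusc3 did not pass in the liver, at 2.41 ± 0.515 in cKO and 5.17 ± 2.46 FPKM in YFP+ (limma adjusted p = 0.0965), or in the thymus (0.0577), and its means lay on the other side from those of Gm6213 in both tissues. Msr1 stayed at no more than 0.055 FPKM.

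Speer7-ps1 was higher in cKO in both tissues. Thymus Speer7-ps1 was at 6.594, 10.113 and 7.866 FPKM in cKO and at 0.868, 0.223 and 3.190 FPKM in YFP+. YFP+ replicate 3 stood above the other YFP+ libraries but below every cKO library. The means were 8.19 ± 1.78 in cKO and 1.43 ± 1.56 FPKM in YFP+ (SD, n = 3 each), and the log2 difference of 2.1 ± 0.54 (SE) was between 1.7 without YFP+ replicate 2 and 2.59 without YFP+ replicate 3. In the liver it was at 3.344, 4.909 and 2.224 FPKM in cKO and listed at 0 in all 3 YFP+ libraries, so no fold is given. It was 1 of 19 genes listed at 0 in all liver YFP+ libraries among the 9468 with a liver cKO mean of at least 1 FPKM. Liver YFP+ libraries listed more genes at 0 in general, 8800 to 8869 against 6702 to 6841 in liver cKO. A listed 0 may also stand for an estimate that failed.

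RefSeq now lists Speer7-ps1 as Speer4cos, a name for the strand opposite to Speer4c, which it overlaps. Of the 1034 windows of 50 bases in its GENCODE M21 transcript of 1083 bases, 240 also occur on the opposite strand in transcripts of Speer4c, 34 in those of Speer4b, 10 in those of Speer4d and 10 in that of Speer4e. No window occurs on the same strand in any of the 13 Speer genes searched, which do not include Speer8-ps1. The stretch below, bases 250 to 336 of that transcript (GRCm38 annotation, plus strand of the chromosome), shows how far this sharing goes; the capitals mark the longest run, 57 bases, that the reverse complements of Speer4d and Speer4e both hold, within their coding sequence.
Speer7-ps1 (Speer4cos-201): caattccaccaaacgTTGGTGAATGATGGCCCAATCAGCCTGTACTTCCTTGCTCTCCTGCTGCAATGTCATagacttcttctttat
Without a known strand setting, fragments from such runs cannot be assigned to one of these genes, and the level of each is uncertain.

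Of 4 other Speer genes tested in the thymus 3 rose and none fell, beside 2.64% of all tested genes called higher there, with a median log2 difference of 1.67 beside -0.16 for all tested genes. Speer4d and Speer4e share sequence with Speer7-ps1, so they are not separate evidence, and Speer8-ps1 was not in the sequence search. Speer4d and Speer4e also had YFP+ means of 0.693 and 0.669 FPKM. They reached the level for testing only through cKO, so the count leans to rises and nothing is read from it. Speer8-ps1, another pseudogene of the family, was at 7.735, 9.706 and 9.467 FPKM in cKO and at 1.012, 1.016 and 2.506 FPKM in YFP+ thymus (log2 difference 2.03 ± 0.21, limma adjusted p = 9.26e-04). Speer4d, a coding member that flanks Speer7-ps1, was at 3.560, 6.625 and 4.832 FPKM in cKO and at 0.540, 0.402 and 1.138 FPKM in YFP+ (log2 difference 1.82 ± 0.22, limma adjusted p = 0.00177). Speer4e, also coding, was at 3.045, 4.980 and 3.581 FPKM in cKO and at 0.661, 0.515 and 0.831 FPKM in YFP+ (log2 difference 1.53 ± 0.16, limma adjusted p = 8.26e-04). In all 3 genes YFP+ replicate 3 was the highest YFP+ library and cKO replicate 2 the highest cKO library, as it was for Speer7-ps1. These 3 calls held in every alternative fit run. Speer1-ps1 did not pass, with 1.98 ± 0.331 in cKO and 1.53 ± 0.485 FPKM in YFP+ thymus (limma adjusted p = 0.265). In the liver none of the 12 other Speer genes reached the level for testing. Of these, 10 were listed above 0 in at least 1 cKO library and 1, Speer1-ps1, in a YFP+ library. Markers of testis germ cells were under 1 FPKM in all thymus libraries, and their sum was 0.314 to 1.06 FPKM in cKO and 0.769 to 1.09 FPKM in YFP+.

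**Figure D4:**
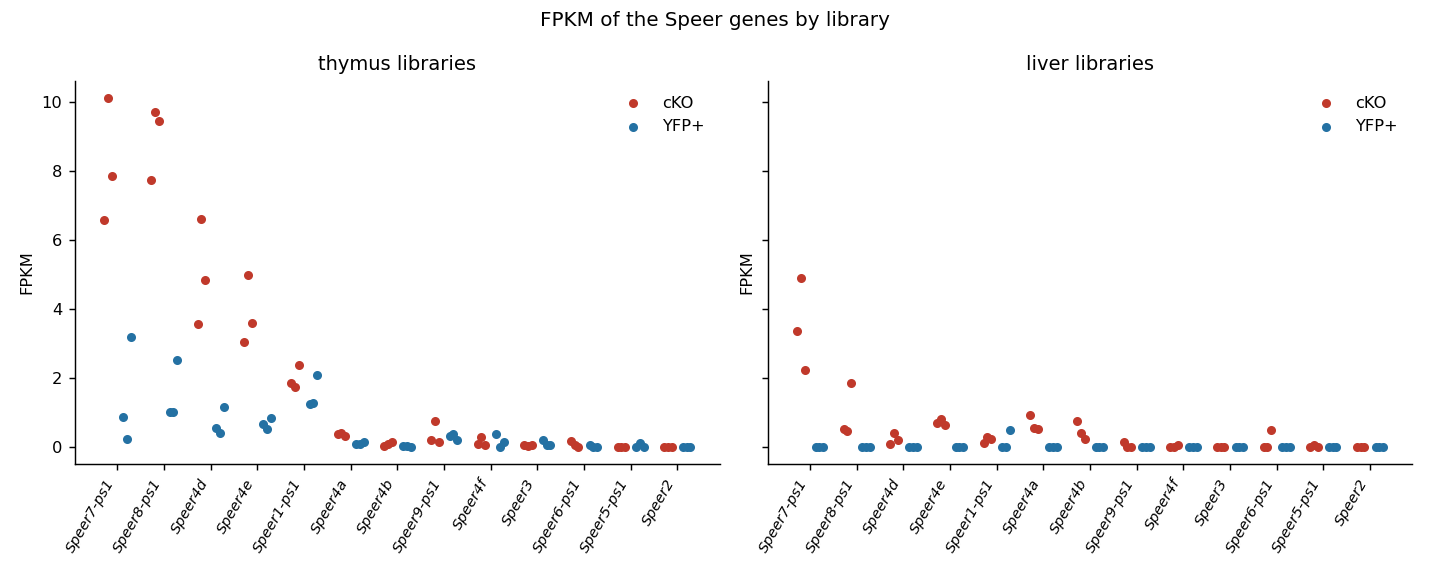
FPKM (vertical axis, linear) of Speer7-ps1 and the 12 other Speer genes in each cKO (red) and YFP+ (blue) library of thymus (left) and liver (right). Speer7-ps1, Speer8-ps1, Speer4d and Speer4e lie higher in every thymus cKO library than in any YFP+ library, and the liver YFP+ libraries list all Speer genes at 0 but for Speer1-ps1 in 1 library.

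The genes most like each of the 7 were taken by the smallest mean absolute difference between profiles over the 6 libraries of a tissue, each profile being log2(FPKM + 1) less the mean of the gene. In the thymus Nrgn was most like Pdcd1, the gene of the inhibitory receptor PD-1 (mean absolute difference 0.331), then Ahr, the aryl hydrocarbon receptor (0.444), then Atp8a2 (0.449). Atp8a2 was most like Ahr (0.158), Trf (0.181) and Emid1 (0.2), and Trf like Emid1 (0.114), Fhl2 (0.114) and Il17rb, the interleukin-25 receptor gene (0.134). Speer7-ps1 was most like Speer8-ps1 (0.228), Speer4d (0.299) and Klri1, a lectin-like receptor gene (0.357). Rln3, which varied little in the thymus, was most like Ms4a6c (0.0346), 4930599N23Rik (0.0531) and Hopx (0.0538).

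In the liver Cntnap1 was most like Ccr10 (0.136), Sox13, a transcription factor gene linked to gamma-delta T cells (0.174), and Olfr856-ps1 (0.2). Rln3 was most like Sox13 (0.189), Nkain3 (0.227) and Cntnap1 (0.236), and Speer7-ps1 like Ccr10 (0.248), Cd163l1, a scavenger receptor gene of gamma-delta T cells (0.257), and Cntnap1 (0.275). Gm6213 was most like Il2, the T cell growth factor gene (0.273), Gm9962 (0.285) and Nkain3 (0.356). Sox13 was at 8.13 ± 1.25 in cKO and 0.793 ± 0.267 FPKM in YFP+ liver, Cd163l1 at 8.40 ± 1.78 and 1.98 ± 0.489, and Il2 at 7.05 ± 1.28 and 1.59 ± 0.825. Nrgn was most like Gm525 (0.132), C1qb, a complement gene of macrophages (0.154), and Mir1931 (0.171), and Trf like C1qb (0.0582), Ccnb2, a cyclin gene (0.0798), and Ccr9, a homing receptor gene (0.0874). Atp8a2, nearly level in the liver, was most like Fam158a (0.0363), Als2cr4 (0.0381) and 2810002D19Rik (0.0421). These likenesses rest on 6 libraries in 2 groups, and any gene with a difference of similar size between the groups comes out as alike.

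Markers of other cells moved with the liver groups. The markers of NKT and T cells were high in sum in all libraries. In the liver they summed to 3228 to 3258 FPKM in cKO and 3325 to 3735 FPKM in YFP+. In the thymus the sums were 1225 to 1269 FPKM in cKO and 1463 to 1638 FPKM in YFP+. Of these 10 markers 1 rose and 3 fell in the thymus, beside 2.64% and 13.1% of all tested genes. In the liver 1 rose and 2 fell, beside 7.49% and 19.7%. Zbtb16, a marker of this list, was at 3.154 to 4.274 FPKM in cKO and 11.014 to 13.541 FPKM in YFP+ thymus. Its liver groups overlapped. The 10 markers of macrophages and other myeloid cells summed to 21.4 to 23.6 FPKM in cKO and 64.98 to 87.8 FPKM in YFP+ liver. The 7 erythroid markers summed to 7.79 to 11.6 FPKM in cKO and 464 to 539.5 FPKM in YFP+ liver. Of the myeloid markers 4 of 6 tested fell and of the erythroid all 3, beside 19.7% of all tested liver genes called lower. C1qa and C1qb, at no more than 0.435 and 0.691 FPKM in liver cKO, reached the level for testing only through YFP+. The myeloid count therefore leans to falls, and nothing is read from it. The 8 markers of double-positive thymocytes summed to 23.1 to 24.5 FPKM in cKO and 78.6 to 87.9 FPKM in YFP+ liver, and those of B cells to 1.92 to 3.34 FPKM in cKO and 11.5 to 11.95 FPKM in YFP+ liver. These sums were lower in cKO, as Nrgn and Trf were in the liver, and their part in those differences was not tested. In the thymus the double-positive markers summed to 6.25 to 8.11 FPKM in cKO and 11.9 to 16.7 FPKM in YFP+. Most of that sum was Cd1d1, at 5.103 to 6.657 FPKM in cKO and 9.798 to 12.878 FPKM in YFP+, and Cd4. Rag1 and Dntt did not exceed 0.081 and 0.214 FPKM in any thymus library. Thymus myeloid markers summed to 2.19 to 3.03 FPKM in cKO and 3.10 to 3.85 FPKM in YFP+. Fcgr3 was their largest part, at 1.020 to 1.164 FPKM in cKO and 2.060 to 2.197 FPKM in YFP+, while Cd68 was slightly higher in cKO. The part of these sums in the thymus differences was likewise not tested. The erythroid sum was 66.2, 0.167 and 8.75 FPKM in thymus cKO replicates 1, 2 and 3, and no more than 0.596 FPKM in YFP+ thymus. Without cKO replicate 1 the thymus log2 differences of Nrgn, Atp8a2, Trf and Speer7-ps1 were -3.54, -2.52, -2.45 and 2.22, and without cKO replicate 3 they were -3.30, -2.49, -2.26 and 2.11. Markers of endothelium and stroma summed to no more than 1.17 FPKM, and those of thymic epithelium to no more than 1.27 FPKM, in any library.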

How the data were processed

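The authors deposited FPKM, 1 table for each tissue with 6 libraries each; per the submitters' processing notes they used TopHat2 (2.8.0 as given there) and Cufflinks 2.1.1 on mm9. Per the labels' protocols, cDNA came from a SMARTer low-input kit and libraries from a TruSeq or ThruPLEX kit, with no record of which library had which. FPKM divide by transcript length and mapped total, so abundant transcripts lower all others, and reads of close copies are divided by a model. The annotation and strand setting are not given in the sources used here. From the deposited FPKM, limma 3.58.1 (R 4.3.3, trend) was fitted per tissue on log2(FPKM + 1), requiring a mean of 1 FPKM, with Benjamini-Hochberg adjustment over all genes; the fit was tested on simulated data. A pseudocount of 1 understates changes of low genes. Alternatives were a pseudocount of 0.1, no filter, median-ratio scaling, a replicate block and each library left out.

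The genes and lists were chosen with earlier results of these data known. Named are all 7 genes; from each of 6 partner lists up to 4 called genes with groups apart and the 2 most abundant; flanking genes; and the 3 most alike genes. Of the genes this rule picks, 1 is withheld for evaluation and not reported here. RefSeq (GRCm38.p6) gave gene order and names only, since the files use mm9. No 2 libraries held identical values (0 pairs).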

Additional observations from a re-analysis of the deposited data

Results flagged for a closer look

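Ppp3ca, which encodes a catalytic subunit of the calmodulin-dependent phosphatase calcineurin, had differences of opposite sign in the 2 tissues, on the scale as deposited. Every cKO library lay above every YFP+ library in the liver, with 7.86 ± 0.768 in cKO and 5.89 ± 0.561 FPKM in YFP+ (log2 difference 0.36 ± 0.12). Every cKO library lay below every YFP+ library in the thymus, with 18.6 ± 0.414 in cKO and 21.6 ± 0.886 FPKM in YFP+ (log2 difference -0.20 ± 0.07). The thymus value is close to the median of all tested thymus genes, -0.16, and with median-ratio scaling it was -0.02 (limma adjusted p = 0.926). Ppp3ca did not pass in either tissue (limma adjusted p = 0.0576 in the liver and 0.0824 in the thymus). Over the alternatives the liver adjusted p was 0.0225, with median-ratio scaling, to 0.167. The difference between the tissues was not tested. Groups of 3 libraries are too small for a check of outlying samples.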

How the results depend on the processing

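The number of genes called in the thymus, 1429, became 801 with no filter, 812 with median-ratio scaling (598 genes shared with the 1429) and 787 with a replicate block, and ran from 472 to 2408 in fits without 1 library. In the liver 2607 ran from 1539 to 2640 without 1 library. Of the partner lists, 10 genes were called in the thymus (6 to 10 without 1 library) and 9 in the liver (5 to 8). Same-numbered libraries did not deviate together (thymus correlations -0.046 to 0.008, liver -0.063 to 0.066), so the block does not pair them. The differences of the 7 genes kept their direction in all 140 alternative values. In 129 they moved by less than the spread between replicates, and in 11, all with the pseudocount of 0.1, by more. With it the thymus differences were -4.96 for Nrgn, -3.52 for Atp8a2, -2.51 for Trf, 0.64 for Rln3, 0.99 for Cntnap1, 0.75 for Gm6213 and 3.02 for Speer7-ps1, and the liver ones -2.48 for Nrgn, 3.05 for Cntnap1 and 3.03 for Gm6213. That of Speer7-ps1 in the liver, the other of the 11, is set by the pseudocount, since YFP+ is listed at 0, and is not given. Of 188 alternative results for called partner genes, 139 kept the call, 49 lost it and 0 reversed. Without a known depth, low values such as those of Gm6213 have no counting error.

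Adjusted p of the unstable liver calls were 0.0530 to 0.0710 for Calm2 without each cKO library, 0.0608 with no filter and 0.103 with median-ratio scaling; 0.0628 to 0.0714 for Calm3 when cKO replicate 1, cKO replicate 2 or YFP+ replicate 2 was dropped, 0.0967 after rescaling by median ratios; 0.0640 to 0.116 for Camk2b without any library but YFP+ replicate 3, 0.0831 with no filter and 0.0683 with a replicate block; and 0.0754 to 0.137 for Camk4 without any library but cKO replicate 2, 0.0922 with no filter, 0.0968 with median-ratio scaling and 0.0754 with a replicate block. The cause was not tested.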
